A study of Bos taurus with 81 samples.

Results

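The broad H3K4me3 domains of the bovine germinal vesicle oocyte were 4573 autosomal intervals of 10 kb or more, taken from 58920 intervals that carried H3K4me3 peaks in both oocyte libraries. To find them, H3K4me3 peaks less than 3 kb apart were joined in each of the 2 oocyte lists, joined intervals of 10 kb or more were kept, and the intersections of both sets that were still 10 kb or longer became the domains. The domains were thus chosen by their H3K4me3 peaks in the 2 GV libraries, whose values are given below as a description only. The domains were then followed through all 4 histone marks, all 9 groups and the chromatin accessibility libraries.

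The data came from 72 CUT&Tag libraries, in which an antibody against a histone mark guides a transposase that cuts and tags the DNA nearby, and 9 ATAC-seq libraries, in which the transposase tags accessible DNA with no antibody. Each mark (H3K4me3, H3K27ac, H3K27me3 and H3K9me3) had 2 libraries in each group, and ATAC had 3 libraries in each of 3 groups. Germinal vesicle oocytes (GV) were taken before maturation, and embryos made by in vitro maturation and fertilisation were collected with 2 cells (2C, 32 h after insemination), 4 cells (4C, 44 h), 8 cells (8C, 56 h), as morulae (MO, 122 h) and as blastocysts (BL, 172 h). The group 8A held embryos with 8 cells of the same 56 h, cultured with 50 μg/ml α-amanitin, an inhibitor of RNA polymerase II. Inner cell mass (ICM) was obtained from blastocysts by immunosurgery and trophectoderm (TE) by cutting with a micro scalpel, and about 500 oocytes or 1000 to 1500 blastomeres went into a library. ICM and TE could not be checked against marker genes, because no gene annotation of the files' build was used here. Nothing in the labels says that replicate libraries came from separate batches of oocytes or embryos, so the spread between them may be technical.

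H3K4me3 is a mark of active promoters in most cells, where it forms narrow peaks. In growing oocytes it also spreads into broad, non-canonical domains that lie largely outside active promoters, and embryos remove these around the time their own genome is switched on. H3K27me3 is laid down by Polycomb repressive complex PRC2 and H3K9me3 marks heterochromatin, while H3K27ac marks active enhancers and promoters.

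The unit throughout is the covered share, the percentage of the length of a domain, or of all domains together, that lay under the authors' peaks of a library. A domain is called marked in a group where at least 50% of its length was covered in every library of that group. The deposited lists give no read totals, so depth was unknown, and a shorter list can come from fewer reads as well as from a narrower mark. For this reason the covered share of all other autosomal sequence is given beside that of the domains. The 19319 intersections of 2 to 10 kb from the same joining, called shorter intervals below, are part of that other sequence. Edges of H3K27me3 and H3K9me3 peaks lay on a coarser grid than those of the other assays, so levels are compared within a mark and not between marks.

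The domains summed to 85.2 Mb, or 3.43% of the 2488 Mb of autosomal sequence. Their median length was 15.1 kb (quartiles 11.95 and 21.3 kb), 1314 reached 20 kb and 115 reached 50 kb. The longest, chr13:78229401-78328850 (ARS-UCD1.2), spanned 99.5 kb. It was followed by chr22:58703251-58797500 (94.3 kb), chr25:42035751-42129850 (94.1 kb), chr16:49908001-49997650 (89.7 kb) and chr25:41928201-42014550 (86.4 kb), so that 2 of the 5 longest lay next to each other on chromosome 25. In the peak lists a domain was a run of separate peaks. It held a median of 9 peaks in GV replicate 1 and 8 in GV replicate 2, and the longest peak within it had a median of 2.00 and 2.55 kb. In these libraries 0 and 5 domains held a single peak of 10 kb or more. Whether the signal itself was broken between peaks cannot be told from the lists. At the length limit, 3 of the shortest domains, of 10.0 kb each, were covered 50.0% to 64.0% in both GV libraries, and 3 of the longest intersections left out, of 9.95 kb each, were covered 40.2% to 85.9%.

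The domains were unevenly spread over the genome. Their number per Mb ran from 0.820 on chromosome 1 to 4.65 on chromosome 19, with a median of 1.79 over the 29 autosomes. They took up 8.81% of chromosome 19, 8.77% of chromosome 25 and 7.48% of chromosome 29, against 1.32% of chromosome 1. The last 2 Mb of the autosomes held 562 domain centres (12.3%) and the first 2 Mb held 130 (2.84%), although each of these zones makes up 2.33% of the autosomal length. Bovine autosomes have their centromere at the start of the sequence, so the last 2 Mb are the telomeric ends of the long arms. Neighbouring domains lay a median of 58.0 kb apart, and 47.2% of the gaps were under 50 kb.

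The H3K4me3 covered share of the domains went from the highest level of the series in GV to a few percent from the morula on. It was 57.2% and 65.4% in the 2 GV libraries, 48.5% and 47.6% in 2C, 40.0% and 45.1% in 4C, and 25.4% and 42.4% in 8C. It was 27.5% and 23.7% in 8A, 5.27% and 5.58% in MO, 4.96% and 5.67% in BL, 3.60% and 3.74% in ICM and 5.51% and 4.98% in TE. No library from the morula on came near any earlier library, whereas the 8C libraries lay far apart, and the range of 8A overlapped theirs. All other autosomal sequence was covered 3.84% and 5.01% in GV, 1.96% and 3.18% in 8C and 1.62% and 1.8% in MO. The domains were thus covered 16.1 ± 0.021 times as densely as the other sequence in 2C, 13.2 ± 0.281 times in 8C, 17.8 ± 0.014 times in 8A and 3.17 ± 0.115 times in MO (SD, n = 2). The domains held 32.1% or less of the list length in 8C, 38.7% or more in 8A and 10.3% or less in MO.

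**Figure D1:**
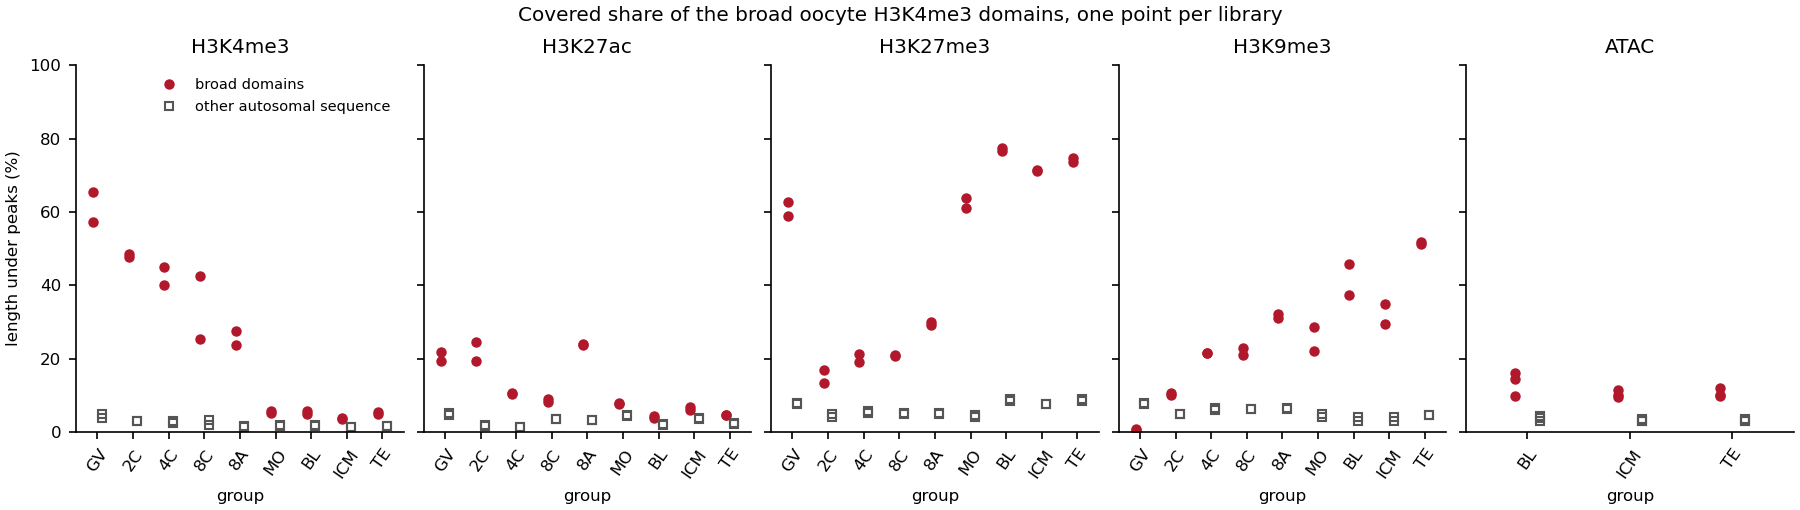
Percentage of length under peaks (vertical axis) in the broad domains (filled red points) and in all other autosomal sequence (open grey squares) for each library, by group and assay. H3K4me3 in the domains is between 23.7% and 65.4% up to 8A and 5.67% or less from MO on, while H3K27me3 is high in GV, low from 2C to 8C and high again from MO on.

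At the level of single domains, H3K4me3 marked 3113 in GV (1.53% of all domains and 10 kb windows together), 1631 in 2C (0.948%), 1209 in 4C (0.737%) and 618 in 8C (0.490%). It marked 513 in 8A (0.299%), 71 in MO (0.286%), 77 in BL (0.450%), 39 in ICM (0.262%) and 72 in TE (0.399%). Through 2C, 4C and 8C without a break the mark stayed on 563 domains (0.347% of all regions), and on 57 of these it was still there in MO (0.0586%). The figures depend on the limit of 50%: at 25%, 3575 domains were marked in 2C and 303 in MO, and at 75%, 340 and 11.

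Changes of single domains were tested with limma on the arcsine square root of the covered share, over the domains and all 10 kb autosomal windows that touched none, with a domain called where the Benjamini-Hochberg adjusted p was under 0.05 and the mean covered share changed by at least 10 points. The GV libraries were left out of the H3K4me3 fit because they had chosen the domains. Percentages of domains called are of all 4573, also those that failed the filter and were not tested. Shares of all regions given with calls are of the regions tested, so the domain percentages are low by comparison. In counts of marked domains, all regions are the 240736 domains and windows together. Of the 4573 domains, 4496 passed the filter of a 2% mean covered share and 3271 had less H3K4me3 in MO than in 8C, which is 71.5% of the domains against 28.1% of all 42973 regions tested, while 32 had more (6.99% of all regions). Without any 1 of the 4 libraries concerned, 54.5% to 82.7% of the domains were still called lower, and 25.0% when every list was shortened by score to 1 covered length. With 2 libraries against 2, the smallest two-sided p of an exact permutation test is 0.333, so these calls rest on the spread pooled over all groups of the fit.

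The steps before the morula were less clear. Between 2C and 4C, H3K4me3 fell in 27 domains (0.400% of all regions) and rose in 1, chr24:55667301-55678650 (0.0884% of all regions), where the covered share was 0 and 0 in 2C and 15.4% and 9.69% in 4C. Without 4C replicate 2, 1.25% of the domains fell over this step, and with untransformed shares 5.31%. Between 4C and 8C it fell in 814 domains, 17.8% of them (6.39% of all regions), and rose in 66 (4.63%). This count rested on single libraries: 7.0% of the domains fell without 4C replicate 2, 8.70% without 8C replicate 1 and 59.1% without 8C replicate 2. Between 8C and 8A, H3K4me3 was lower in 757 domains, or 16.6%, which is close to the 16.2% of all regions, and higher in 3 (0.0768%). That count was 59.4% without 8C replicate 1, 5.34% without 8C replicate 2 and 6.84% without 8A replicate 2, and on lists shortened to 1 covered length the direction turned, with 1.57% of the domains lower and 8.31% higher. Without 8C replicate 2, the median change of the domains from 8C to 8A was 0 points. The covered share of 8C replicate 1 (25.4%) lay between those of the 8A libraries (27.5% and 23.7%). The H3K4me3 difference under α-amanitin thus rested on 8C replicate 2, and its direction turned on the shortened lists.

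The largest fall between 8C and MO was on chr4:248701-265000, a domain of 16.3 kb. H3K4me3 covered 94.8% and 92.3% of it in GV, 92.0% and 90.8% in 2C, 96.0% and 93.9% in 4C, 96.9% and 100% in 8C, 89.0% and 80.4% in 8A, and none of it in all MO, BL, ICM and TE libraries (limma, Benjamini-Hochberg adjusted p = 2.74e-08 for 8C against MO). H3K27me3 covered 100% of it in all 18 libraries of that mark. H3K9me3 was absent from it in GV and covered 97.5% and 86.5% of it in 2C, 68.7% and 90.2% in 4C and 100% in every other library. H3K27ac was at 85.9% and 76.1% in 8C and at 0% in every library from MO on, and ATAC peaks were absent in all 9 libraries. H3K4me3 thus lay on this domain together with H3K27me3 up to 8C, from 2C also together with H3K9me3, and from the morula on both repressive marks lay there alone. The rise with the largest size over this step was on chr2:96469551-96484800, from 5.90% and 11.5% in 8C to 53.1% and 58.7% in MO (limma, Benjamini-Hochberg adjusted p = 1.95e-06).

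Later steps moved few domains. Between MO and BL, 118 domains had less H3K4me3 (3.17% of all regions) and 93 had more (4.82%), which is 2.58% and 2.03% of the domains. The direction with more calls turned without MO replicate 2 (1.22% lower, 1.33% higher) and without BL replicate 1 (1.16% lower, 1.60% higher), while 1.71% were lower without BL replicate 2. Between ICM and TE, 168 domains, 3.67% of them, had more in TE (4.87% of all regions) and 23 had less (1.21%). The first count was 2.16% without ICM replicate 1 and 1.79% without TE replicate 1.

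Between 2C and 8C the H3K4me3 of the domains lay nearly evenly over their length, and from the morula on it was higher at their edges. The 2 middle parts, of 10 equal parts of each domain, were covered 47.6% in 2C and the 2 outermost parts 50.9%. In 8C these values were 33.9% and 34.9%, in MO 4.25% and 8.62%, and in TE 4.05% and 8.12%. The edges in GV (70.9%, against 59.2% in the middle) were set by the rule, since every domain had to begin and end in a peak. The first kb outside was covered 12.9% in GV, 10.2% in 8C and 4.99% in MO. Inside parts weigh domains by their length and steps outside weigh them equally, so values inside and outside are not compared here.

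**Figure D2:**
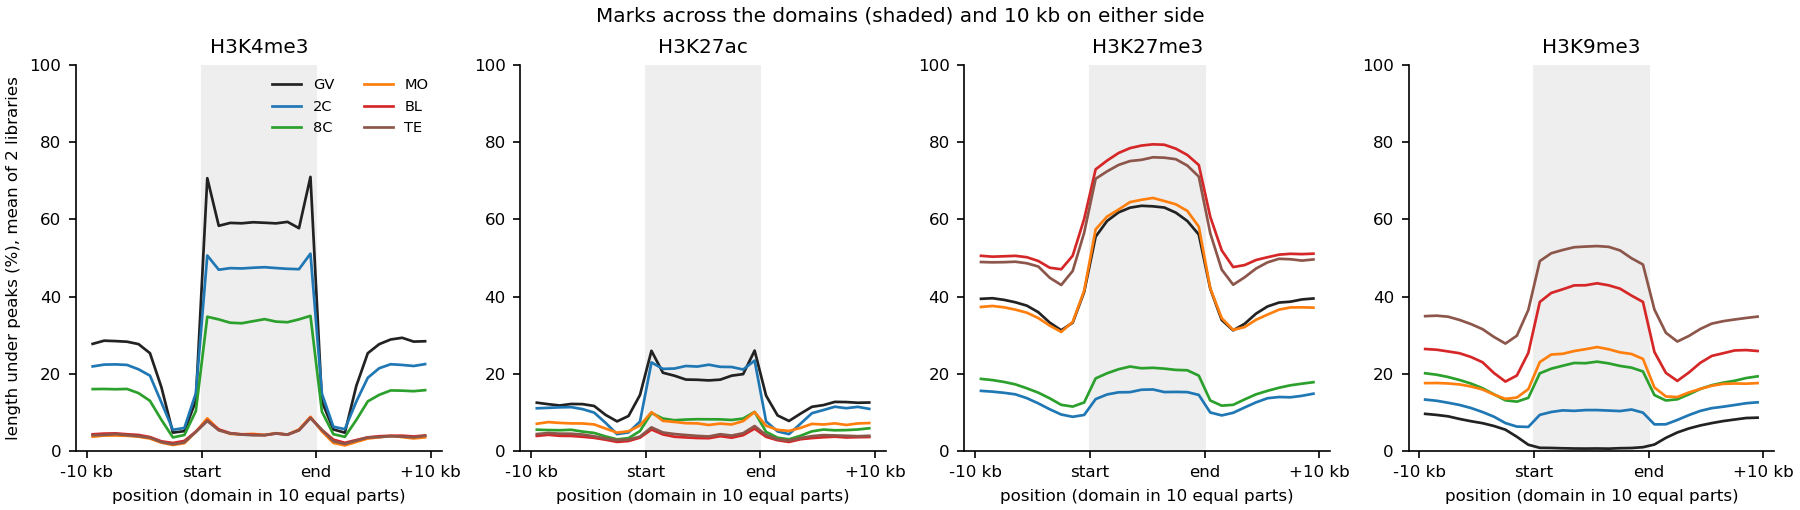
Mean percentage of length under peaks (vertical axis, 2 libraries) over 10 equal parts of each domain (shaded) and over 1 kb steps of the 10 kb on either side, for 6 groups and 4 marks. The H3K4me3 lines of MO, BL and TE peak at the domain edges, whereas H3K27me3 and H3K9me3 peak in the middle of the domains in every group from MO on. Inside parts weigh domains by length and steps outside weigh them equally.

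H3K27me3 covered the domains widely in the oocyte, thinly in the cleavage stages and again widely from the morula on. Its covered share was 62.6% and 58.9% in GV, 13.3% and 16.8% in 2C, 21.3% and 18.9% in 4C, 20.6% and 20.9% in 8C and 29.05% and 29.9% in 8A. It was 63.9% and 61.1% in MO, 77.6% and 76.7% in BL, 71.2% and 71.4% in ICM and 73.6% and 74.6% in TE. The libraries of 2C, 4C, 8C and 8A all lay below those of GV and of MO, and the ranges of GV and MO overlapped. Other autosomal sequence was covered 7.73% ± 0.093 in GV, 5.02% ± 0.077 in 8C and 4.29% ± 0.336 in MO (SD, n = 2). The domains were covered 7.86 ± 0.429 times as densely as that sequence in GV, 4.14 ± 0.021 times in 8C and 14.6 ± 0.696 times in MO, when they held 33.4% and 34.9% of the whole length of the lists. The shorter intervals had the same course at lower levels, with H3K27me3 at 37.9% ± 1.28 in GV, 7.14% ± 0.111 in 8C and 34.1% ± 1.31 in MO.

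Between GV and 2C, H3K27me3 fell in 2841 of the 4573 domains (4350 passed the filter), which is 62.1% of them against 26.1% of all 77011 regions tested, and rose in 59 (10.6%). Between 8C and MO it rose in 2698 domains (17.5% of all regions), and fell in 100 (15.2%). Leaving out single libraries gave 57.5% to 61.0% of domains for the fall and 54.1% to 56.4% for the rise, and shortened lists gave 36.4% and 42.4%. In 337 domains the rise was from 0% in both 8C libraries to 100% in both MO libraries, and the longest of these was chr18:12166501-12219500 of 53.0 kb (limma, Benjamini-Hochberg adjusted p = 2.14e-12). In 293 domains the fall from GV to 2C was as complete, and the longest of these, chr20:69326201-69384800 of 58.6 kb, went from 100% in both GV libraries to 0% in both 2C libraries (limma, Benjamini-Hochberg adjusted p = 4.03e-08).

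H3K27me3 marked 2545 domains in GV (6.21% of all regions), 387 in 2C (2.89%), 553 in 4C (4.27%), 621 in 8C (4.06%) and 976 in 8A (4.21%). It marked 2567 in MO (3.73%), 3437 in BL (8.27%), 3112 in ICM (7.25%) and 3327 in TE (8.04%). Of the 2545 domains marked in GV, 1658 (65.1%) did not reach 50% in any 2C, 4C or 8C library (4.25% of all regions followed that course). Of these, 1130 (68.2%) were marked again in MO (1.29% of all regions). Of 12416 windows outside the domains that were marked in GV, 69.1% followed the same course up to 8C, and 22.9% of those were marked in MO. These shares of domains and windows were not tested against each other. A further 1534 domains had H3K27me3 in no GV and no 8C library, and of these 27.4% were marked in MO and 57.2% in BL (0.989% and 3.46% of all regions followed those courses). Of the 202789 windows without the mark in GV and 8C, 0.966% were marked in MO and 3.67% in BL.

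Domains with both H3K4me3 and H3K27me3 were many in the oocyte and few later. Since GV H3K4me3 peaks chose the domains, the GV values here and the fall from them are a description only. In GV, H3K4me3 marked 3113 domains and H3K27me3 2545, so many domains could carry both without any link between the marks. Both marked 1856 domains in GV (0.876% of all regions), 195 in 2C (0.0984%), 128 in 8C (0.0785%) and 15 in MO (0.0116%). In MO, 2552 domains carried H3K27me3 alone and 56 H3K4me3 alone. At the level of bases, 60.6% of the domain sequence under H3K4me3 in both GV libraries was also under H3K27me3 in both, against 46.3% of the domain sequence under no H3K4me3. In MO the order was the other way round, with 37.2% of the sequence under H3K4me3 and 59.1% of the sequence without it under H3K27me3. Since embryos and oocytes were pooled, marks on the same DNA and marks on different chromosomes or cells cannot be told apart.

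**Figure D3:**
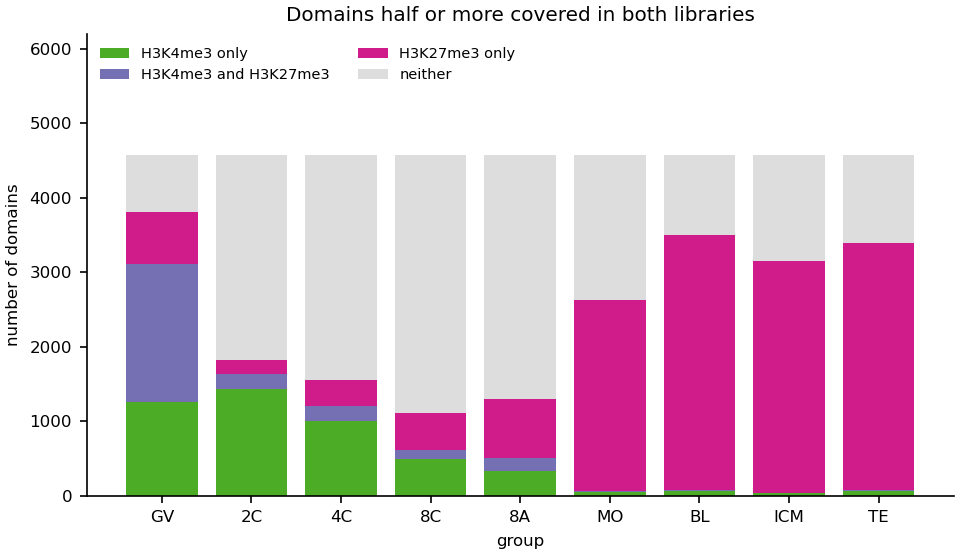
Number of domains (vertical axis) with at least 50% of their length covered in both libraries by H3K4me3 only, by H3K27me3 only, by both or by neither, for each group. Domains with both marks number 1856 in GV and 15 in MO, and domains with H3K27me3 only number 689 in GV and 2552 in MO. GV H3K4me3 peaks chose the domains, so the GV bar is a description only.

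Domain sequence with H3K4me3 in both 8C libraries was more widely under H3K27me3 in the morula than domain sequence with it in neither. Of the 19.7 Mb of domain sequence under H3K4me3 in both 8C libraries, 73.2% was under H3K27me3 in both MO libraries and 16.5% still under H3K4me3. Of the 47.1 Mb with H3K4me3 in neither 8C library, 47.6% was under H3K27me3 and 0.644% under H3K4me3 in MO. These bases were pooled over all domains. Both 8C H3K4me3 and MO H3K27me3 were higher in longer domains and in those with H3K27me3 in GV, and the contrast was not split by either. By calls, 2227 domains had less H3K4me3 and more H3K27me3 in MO than in 8C (20.8% of all regions tested for both). They were 68.1% of the domains that lost H3K4me3 and 82.5% of those that gained H3K27me3. Of all domains, 59.0% gained H3K27me3 and 71.5% lost H3K4me3 over this step, so much of the overlap goes with these high shares.

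Under α-amanitin, 352 domains, 7.70% of them, had more H3K27me3 in 8A than in 8C (2.56% of all regions) and 18 had less (1.76%). Shortened lists gave 4.11% higher and 0.459% lower. Smaller steps were 215 domains higher and 63 lower from 2C to 4C (5.79% and 3.48% of all regions), with 2.95% of the domains higher without 2C replicate 1. From 4C to 8C, 88 were higher and 87 lower (1.78% and 3.01%), and the direction turned without 4C replicate 2 (1.64% higher, 2.21% lower). From MO to BL, 1432 domains were higher (23.4% of all regions) and 204 lower (4.27%), but on shortened lists 11.4% were higher and 11.98% lower. Between ICM and TE 535 were higher in TE and 335 lower (10.9% and 6.50%), shares near those of all regions.

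H3K27me3 also divided the domains in the oocyte itself. The 2545 domains with H3K27me3 in both GV libraries (median 16.2 kb) were compared with the 1638 with it in neither (median 13.75 kb), so the classes also differed in length. H3K27ac covered 10.8% ± 1.40 of the first class and 38.8% ± 2.27 of the second in GV (SD, n = 2), and at the level of bases 20.0% of the domain sequence under H3K27ac was under H3K27me3, against 66.1% of the sequence without H3K27ac. In GV, H3K4me3 was higher in the first class by 4.05 and 4.54 points within the 2 libraries (62.8% ± 5.91 and 58.5% ± 5.57). It stood at 52.5% ± 0.816 against 39.8% ± 0.126 in 2C and at 30.6% ± 3.03 against 16.6% ± 1.93 in 8A. In 8C the values were 38.8% ± 13.0 and 24.9% ± 10.3. Both classes were measured in the same libraries, and within them the difference in 8C was 11.97 and 15.7 points. The first class also had more H3K27me3 in MO (76.3% ± 1.88 against 37.0% ± 2.01) and in BL (85.6% ± 0.668 against 61.4% ± 0.555). H3K9me3 in TE was 64.3% ± 0.793 in the first class and 28.5% ± 0.022 in the second.

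**Figure D4:**
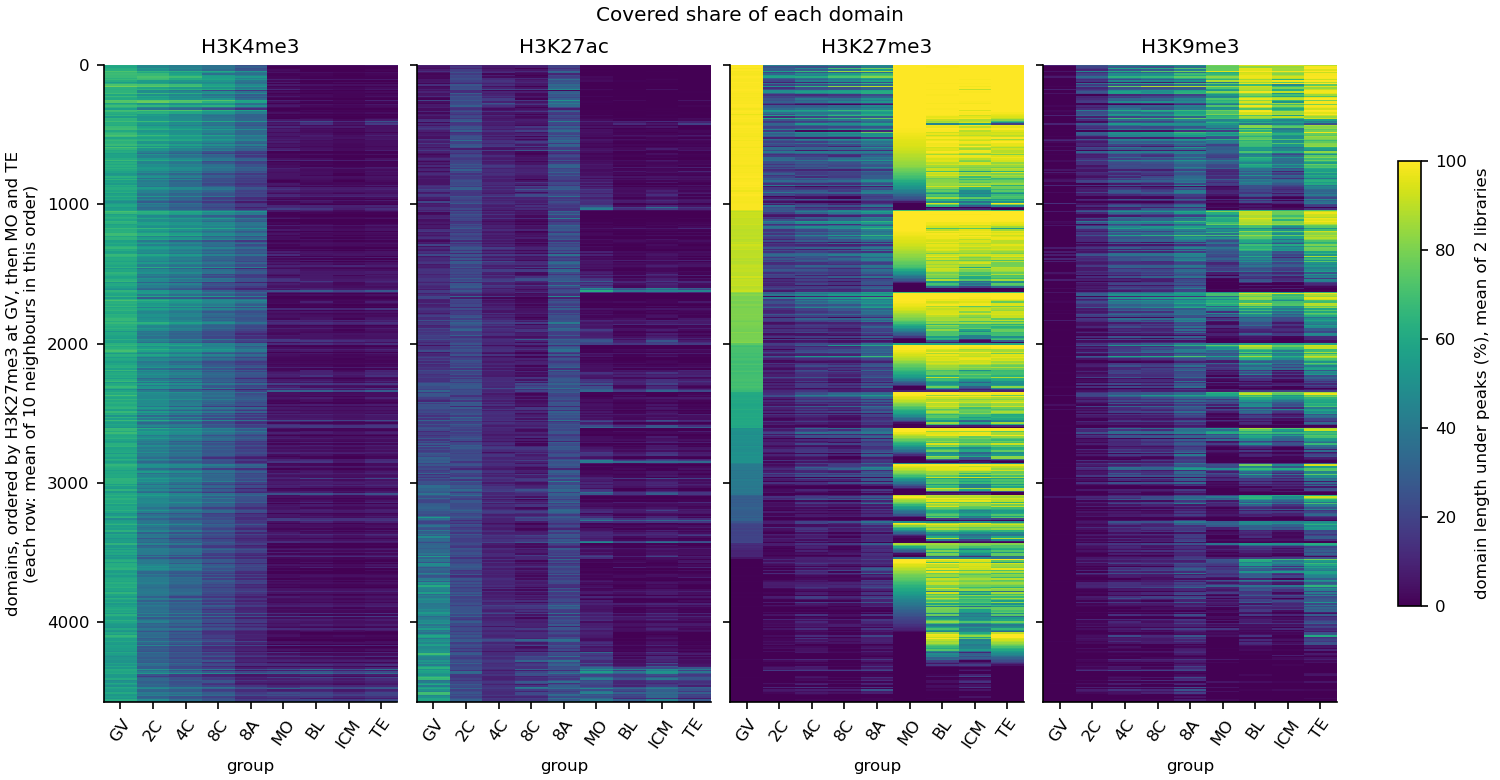
Covered share of the domains (colour, 0% to 100%, mean of 2 libraries) in each group for 4 marks. Rows are domains ordered by H3K27me3 in GV in steps of 10 points, then by H3K27me3 in MO and TE, each drawn row being the mean of 10 neighbours. GV H3K27ac is highest in the lower rows, where GV H3K27me3 is absent, and H3K27me3 in MO and later is found in rows with and without GV H3K27me3.

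H3K9me3 was nearly absent from the domains in the oocyte and covered them widely after the morula. Its covered share was 0.576% and 0.803% in GV, while other autosomal sequence was covered 7.78% and 7.71%, so the domains had 0.089 ± 0.021 times the coverage of the rest (SD, n = 2). It was 10.0% and 10.5% in 2C, 21.5% and 21.5% in 4C, 22.8% and 21.0% in 8C and 32.1% and 30.9% in 8A. It was 22.1% and 28.6% in MO, 37.2% and 45.7% in BL, 29.4% and 34.9% in ICM and 51.8% and 51.1% in TE. By TE the domains were covered 11.3 ± 0.204 times as densely as the rest. H3K9me3 was nearly absent in GV from the shorter intervals as well (0.723% ± 0.078), and covered 27.9% ± 0.529 of them in TE. In the position profile, the 2 middle parts went from 0.594% in GV to 53.0% in TE, and the tenth kb outside from 9.10% to 34.9%. Inside parts weigh domains by length and steps outside weigh them equally, so values inside and outside are not compared.

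H3K9me3 marked 19 domains in GV (6.23% of all regions), 218 in 2C (3.59%), 652 in 4C (5.24%), 679 in 8C (5.33%) and 1072 in 8A (5.51%). There were 760 in MO (2.88%), 1455 in BL (2.40%), 1117 in ICM (2.53%) and 2087 in TE (3.98%). Of the 4573 domains, 3461 passed the filter of the H3K9me3 fit. The mark rose in 542 domains from GV to 2C (3.15% of all 65379 regions tested) and fell in 8 (12.2%), and it rose in 312 from 2C to 4C (2.76%) and fell in 5 (0.441%). From 4C to 8C 30 rose and 17 fell (0.785% and 0.927%), counts whose order turned without 4C replicate 2 (0.678% higher, 0.809% lower) and without 8C replicate 1 (0.897% and 1.05%). Without 4C replicate 1 or 8C replicate 2, 1.09% and 1.01% of the domains rose over that step. In 8A, 306 domains had more than in 8C (2.35%) and 2 had less (1.18%). From 8C to MO 706 rose and 378 fell, when 21.1% and 21.3% of all regions did, and from MO to BL 1081 rose (7.23%) and 95 fell (15.3%).

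H3K9me3 peaks covered more of the domains in trophectoderm than in inner cell mass, and also more of the other sequence. That other sequence was covered 4.57% ± 0.044 in TE and 3.53% ± 0.773 in ICM. Relative to it, the domains were covered 11.3 ± 0.204 times as densely in TE, 9.21 ± 0.903 times in ICM and 12.3 ± 1.07 times in BL (SD, n = 2). The covered share of the domains was 51.5% ± 0.441 in TE and 32.1% ± 3.94 in ICM (SD, n = 2), with no overlap between libraries. Of the 4573 domains, of which 3461 were tested, 1125 (24.6%) had more in TE and 85 had less. Of all 65379 regions tested, 10.3% had more in TE and 6.77% had less. Leaving out single libraries gave 20.9% to 27.4%, and shortened lists gave 14.6% higher against 3.17% lower. In 25 domains the rise was complete, and the longest of these was chr16:80382501-80411250, with 0% in both ICM libraries and 100% in both TE libraries (limma, Benjamini-Hochberg adjusted p = 5.42e-05). TE was cut from the blastocyst and ICM freed by antibody and complement, so the method of isolation and the cell type cannot be told apart.

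Within the domains, H3K9me3 came to lie where H3K27me3 lay. In 8C, 82.8% of the domain sequence under H3K27me3 in both libraries was also under H3K9me3 in both, against 1.73% of the sequence without H3K27me3. In TE these values were 62.4% and 4.34%, and in GV 0.820% and 0.034%. Both marks covered 18 domains in GV (0.415% of all regions), 511 in 8C (3.63%), 865 in 8A (3.82%), 739 in MO (1.05%), 1429 in BL (1.76%) and 2021 in TE (3.04%). The overlap in 8C was not particular to the domains. Of regions marked by H3K27me3 in 8C, 511 of 621 domains and 8733 of 9764 domains and windows together carried both marks. In TE, 2021 of 3327 domains and 7324 of 19352 domains and windows together did. Of the domains with more H3K9me3 in MO than in 8C, 636 (90.1%) also had more H3K27me3, which was 23.6% of the latter (7.27% of all regions tested for both). Domain sequence under H3K27me3 in both MO libraries was under H3K9me3 in both BL libraries over 56.0% of its length, against 2.99% where H3K27me3 was absent in MO.

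H3K27ac covered more of the domains in the oocyte, 2C and 8A than in 4C and 8C. Its covered share was 19.3% and 21.7% in GV, 19.3% and 24.6% in 2C, 10.4% and 10.7% in 4C, 8.94% and 8.11% in 8C and 23.8% and 24.0% in 8A. It was 7.97% and 7.62% in MO, 3.88% and 4.22% in BL, 6.76% and 5.93% in ICM and 4.59% and 4.64% in TE. The 8A libraries were well apart from the 8C libraries, while other autosomal sequence was covered 3.45% ± 0.004 in 8C and 3.28% ± 0.093 in 8A (SD, n = 2). Relative to the other sequence, the order of the groups was different. The domains were covered 4.21 ± 0.019 times as densely in GV, 12.4 ± 0.428 times in 2C and 7.31 ± 0.098 times in 4C. In 8C this was 2.47 ± 0.167 times and in 8A 7.27 ± 0.251 times. The domains took up 20.1% and 20.9% of the list length in 8A, 8.41% and 7.71% in 8C and 20.4% and 20.8% in 4C. H3K27ac was higher in 8A on the shorter intervals too, at 25.7% ± 0.097 against 15.5% ± 0.253 in 8C.

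Under α-amanitin, 2237 of the 4573 domains had more H3K27ac than in 8C (4259 passed the filter), which is 48.9% of them against 15.9% of all 79588 regions tested, and 169 had less (14.0%). Leaving out single libraries gave 45.3% to 47.1% of the domains, and shortened lists 28.4%. The domain with the largest gain was chr19:9286601-9312200, of 25.6 kb. H3K27ac covered 35.5% and 32.8% of it in GV, 57.6% and 68.8% in 2C, 65.4% and 60.0% in 4C, none in either 8C library, 98.2% and 98.8% in 8A and none in MO (limma, Benjamini-Hochberg adjusted p = 4.83e-09 for 8C against 8A). On the same domain H3K4me3 was at 73.2% and 85.7% in 8C and 49.0% and 51.4% in 8A, H3K27me3 at 0% in both groups and H3K9me3 at 0% in both groups. The largest loss was on chr18:17819701-17830000, from 87.4% and 86.4% in 8C to 8.25% and 18.0% in 8A (limma, Benjamini-Hochberg adjusted p = 0.000284).

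H3K27ac covered a larger share of the H3K4me3 sequence in 8A than in 8C. Of the domain sequence under H3K4me3 in both 8A libraries, 50.9% was under H3K27ac in both, against 6.22% of the sequence without H3K4me3. In 8C these values were 16.0% and 1.66%, in 2C 25.2% and 1.57% and in GV 21.4% and 4.35%. H3K27ac marked 563 domains in GV (1.57% of all regions), 127 in 2C (0.0922%), 32 in 4C (0.0287%), 210 in 8C (0.842%) and 527 in 8A (0.561%). It marked 144 in MO (1.41%), 78 in BL (0.578%), 154 in ICM (1.70%) and 89 in TE (0.787%). In MO and ICM this was 3.15% and 3.37% of the domains, nearer to the background than the 11.5% of 8A.

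The other H3K27ac steps went as follows. From GV to 2C the mark rose in 1338 domains (5.31% of all regions) and fell in 1191 (31.8%), which is 29.3% and 26.04% of the domains. Without 2C replicate 2 the falls were more numerous (23.1% higher, 27.7% lower), and on shortened lists the rises were (41.1% higher, 8.13% lower). From 2C to 4C it fell in 1652 domains (7.27%) and rose in 82 (1.82%), with 21.2% falling on shortened lists. From 4C to 8C it fell in 779 (3.66%) and rose in 437 (21.7%). From 8C to MO 763 fell and 634 rose (18.4% and 25.6%), and from MO to BL 631 fell and 97 rose (23.4% and 2.66%). Between ICM and TE 423 had less in TE and 191 more (16.4% and 4.92%), but shortened lists turned that direction, with 3.32% lower and 5.10% higher.

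ATAC peaks covered the domains 9.84%, 14.5% and 16.1% in the 3 BL libraries, 9.99%, 11.6% and 9.63% in ICM and 10.2%, 11.9% and 9.67% in TE, with overlapping groups. This was 3.61 ± 0.303, 3.22 ± 0.044 and 3.21 ± 0.087 times the share of other autosomal sequence (SD, n = 3). Of the domain sequence, the stretches under H3K4me3 were the more accessible ones: 74.6% of the domain sequence under H3K4me3 in both BL libraries was under ATAC peaks in all 3, against 4.45% of the sequence without H3K4me3. For H3K27me3 these values were 5.61% and 18.6%. ATAC marked 78 domains in BL (0.218% of all regions), 82 in ICM (0.228%) and 82 in TE (0.287%). Between ICM and TE, 243 domains were lower and 231 higher in TE of the 3195 that passed the filter (6.57% and 7.45% of all 69860 regions tested), and the larger count changed sides without ICM replicate 2 (3.83% lower, 5.01% higher), TE replicate 1 (4.40% and 4.70%) or TE replicate 3 (4.22% and 5.14%). The largest rise was on chr29:40373951-40387450, from 7.04%, 11.9% and 9.26% in ICM to 79.6%, 95.2% and 72.2% in TE (limma, Benjamini-Hochberg adjusted p = 0.000227).

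Length went with what a domain carried. The 1148 domains of 10 to 12 kb and the 115 of 50 kb or more had GV H3K4me3 at 58.7% ± 5.67 and 65.7% ± 5.74 (SD, n = 2), a difference of 6.94 and 7.04 points within the 2 libraries. In 2C the values were 41.7% ± 0.402 and 59.9% ± 0.876. In MO the order was the reverse, 7.18% ± 0.267 and 3.33% ± 0.046. H3K27me3 stood at 47.7% ± 2.41 and 80.7% ± 2.81 in GV and at 46.8% ± 1.97 and 88.3% ± 1.25 in MO. H3K9me3 in TE was 38.9% ± 0.093 on the shortest class and 75.1% ± 1.27 on the longest. H3K27ac in GV went the other way, 28.2% ± 2.14 against 9.24% ± 0.827. The 4 classes in between lay in order for these marks and groups except GV H3K4me3. Longer domains had their length from the same GV lists, so the H3K4me3 values of GV and the length are not independent.

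**Figure D5:**
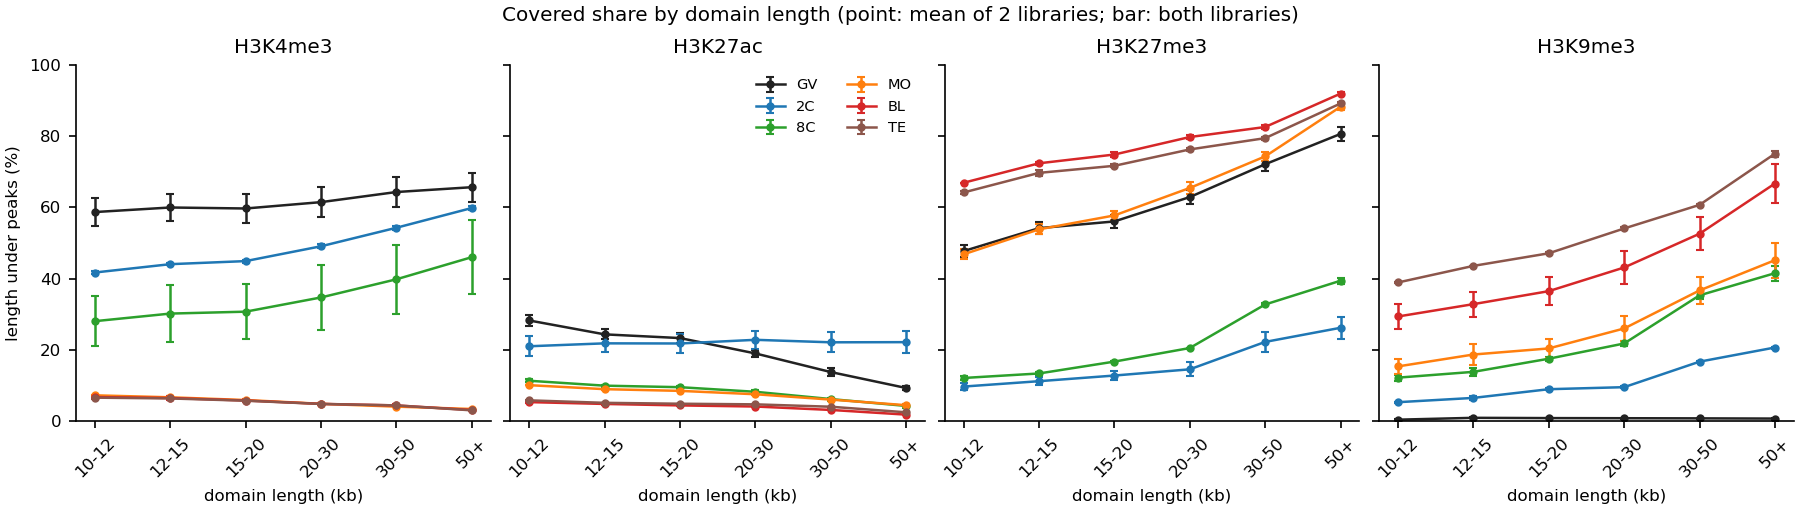
Covered share (vertical axis, %) of the domains by length class (horizontal axis, kb) for 4 marks and 6 groups. Points are means of 2 libraries and bars reach to both libraries. H3K27me3 and H3K9me3 are higher in longer domains in every group drawn except GV H3K9me3, which is under 1% throughout.

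On the 5 longest domains H3K4me3 was at 4.57% or less in MO, while H3K27me3 in 8C differed among them. On the longest, on chromosome 13, H3K4me3 covered 59.9% and 69.1% in GV, 21.2% and 50.0% in 8C and 0% in both MO libraries, and H3K27me3 covered 70.8% and 70.4% in GV, 0% and 4.42% in 2C, 11.3% and 10.9% in 8C and 96.1% and 95.4% in MO. On chr22:58703251-58797500 H3K27me3 stayed higher than on the longest domain in 2C and 8C. It was at 99.8% and 100% in GV, 34.8% and 48.2% in 2C and 81.1% and 75.5% in 8C. H3K4me3 was at 63.1% and 87.2% in 8C and at 2.65% and 2.71% in MO on this domain. H3K27me3 in 8C was also at 81.2% and 68.7% on chr16:49908001-49997650 and at 69.0% and 64.6% on chr25:41928201-42014550. On chr25:42035751-42129850 H3K27me3 in 8C was at 39.7% and 41.2%, so only the chromosome 13 domain was low. H3K9me3 was absent from all 5 in GV and covered at least 53.0% of each in every TE library. On the chr25:42035751-42129850 domain it was at 0% in both ICM libraries and at 63.4% and 69.8% in TE.

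A small set of domains carried H3K4me3 from the morula on. It marked 26 domains in every MO, BL, ICM and TE library (0.135% of all regions), and 25 of these had been marked in 8C as well. Their median length was 11.9 kb. H3K4me3 was at 83.0% of their length in 8C and 72.4% in MO, and H3K27ac at 48.6% in MO and 60.4% in ICM. H3K27me3 was at 39.5% in GV and 14.5% in MO, and H3K9me3 was between 3.31% and 4.84% in every group. ATAC covered 68.3% of them in BL, 62.4% in ICM and 64.3% in TE. At the other end, 2446 domains (53.5%) had no H3K4me3 peak in any MO, BL, ICM or TE library, fewer than the 86.8% of all regions. On these H3K27me3 was at 87.1% in BL, H3K9me3 at 67.4% in TE and ATAC at 3.13% in ICM.

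Single domains carried H3K4me3 in trophectoderm and little of it in inner cell mass. On chr23:45607201-45625050, of 17.9 kb, it covered 69.2% and 79.3% in GV, 94.4% and 97.5% in 8C, 28.9% and 23.2% in MO and 82.1% and 93.0% in BL. In ICM it covered 19.9% and 17.9%, and in TE 91.6% and 89.4% (limma, Benjamini-Hochberg adjusted p = 1.99e-05 for ICM against TE). H3K9me3 on this domain was at 0% up to 8C, at 99.7% and 100% in MO, at 100% in both ICM libraries and at 0% in both TE libraries, a complete fall between ICM and TE that 2 domains showed (limma, Benjamini-Hochberg adjusted p = 8.67e-08). H3K27me3 was at 100% in both ICM libraries and at 32.8% and 33.9% in TE. ATAC covered 33.9%, 40.3% and 37.5% in ICM and 65.0%, 87.4% and 66.4% in TE. A second domain, chr5:27034301-27048800 of 14.5 kb, had H3K4me3 at 12.1% and 20.0% in MO and at 77.6% and 78.3% in BL, the largest rise of that step (limma, Benjamini-Hochberg adjusted p = 7.65e-05). It was at 17.9% and 29.7% in ICM and 81.4% and 77.9% in TE, H3K27ac at 25.2% and 13.1% in ICM and 88.3% and 80.0% in TE, and H3K9me3 at 0% in all 18 libraries.

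The domain chr16:47102751-47113050, of 10.3 kb, had less H3K4me3 in the blastocyst than in the morula. H3K4me3 was at 79.1% and 88.8% in 8C, 64.1% and 61.2% in MO and 18.0% and 16.5% in BL, with 29.1% and 26.7% in ICM and 25.2% and 23.8% in TE. From MO to BL this was the largest fall of that mark (limma, Benjamini-Hochberg adjusted p = 0.000222). Its H3K27ac had gone from 12.6% and 0% in 4C to 92.7% and 96.1% in 8C, the largest rise of that step (limma, Benjamini-Hochberg adjusted p = 2.03e-05), and stood at 38.8% and 33.0% in 8A. H3K9me3 was at 0% on it in every library, and H3K27me3 at 0% in both MO libraries and at 72.3% and 74.3% in BL.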

How the data were processed

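Peak lists of 72 CUT&Tag and 9 ATAC libraries were used. The aligner BWA 0.7.9a, SAMtools 1.9 and Picard 2.26.10, the trimmers cutadapt 1.8.3 and Trim Galore 0.4.0, SICER and the build ARS-UCD1.2 are named per the submitters' processing notes. The lists are named for epic2. Neither cutoff nor control was given in the sources used here. The authors deposited 1 list per library with a whole number per peak, a score of unstated meaning, which was used only to shorten lists. Depth is unknown.

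Domains, covered shares and overlaps (50 bp bins) were computed with Python 3.11.15 and NumPy 2.4.6, and 28 steps were tested with limma 3.58.1 (trend over the mean, Benjamini-Hochberg over all regions of an assay), after tests on simulated data. The simulated data were of H3K27me3. There, most changes planted in single regions were missed and none was called in the wrong direction, so counts of domains with partial changes of that mark may be low. The planted changes were all partial, so they say nothing about counts of complete changes between no cover and full cover. For the other assays the simulated data do not say whether counts are low or high. Counts that moved or turned when a single library was left out may be too high as well as too low. A domain not called is not shown to be unchanged. Alternatives were a replicate block, untransformed shares, centring on the windows, lists shortened to the shortest of an assay, no filter, and each library left out. Regions were named by a rule: the 5 longest, those at the length limit and the largest change per step (of equal changes, the longest domain). The values of chr23:45607201-45625050, chr5:27034301-27048800 and chr16:47102751-47113050 in other marks and the sets by H3K4me3 after the morula were picked after seeing values. The domains and lists were chosen with earlier results of these data known. Gene names and sequences were not used here, as the gene table given was of another build.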

Additional observations from a re-analysis of the deposited data

How the results depend on the processing

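Values here are percentages of the 4573 domains called in the direction with more calls. Of 28 such counts, 26 kept their direction and stayed within 1.5 times with the replicate block, 26 untransformed, 26 with centring, 27 with no filter and 8 with lists shortened by score to 1 covered length, where 16 moved and 4 turned. Same-numbered libraries did not deviate together (correlations from -0.0771 to 0.104), so the numbers are not taken as pairs. With the replicate block, H3K4me3 from 2C to 4C was lower in 0.328%, and H3K27me3 from 4C to 8C turned (1.60% higher, 1.75% lower); no other call count moved that far. H3K4me3 from 2C to 4C was lower in 5.31% untransformed, 1.16% centred, 2.43% on shortened lists and 1.82% with no filter. H3K4me3 from 8C to 8A was lower in 4.48% with centring, and from ICM to TE higher in 2.14% untransformed. On shortened lists H3K4me3 was lower in 11.1% from 4C to 8C, 1.57% from 8C to 8A (turned, 8.31% higher) and 25.0% from 8C to MO, and higher in 1.64% from ICM to TE. H3K27ac was lower in 21.2% from 2C to 4C, higher in 28.4% from 8C to 8A, lower in 10.6% from 8C to MO, in 4.07% from MO to BL and in 3.32% from ICM to TE (turned). H3K27me3 was lower in 36.4% from GV to 2C, and higher in 2.06% from 2C to 4C, 4.11% from 8C to 8A, 11.4% from MO to BL (turned, 11.98% lower) and 6.65% from ICM to TE. H3K9me3 was higher in 6.89% from GV to 2C, 2.97% from 2C to 4C, 0.372% from 4C to 8C (turned, 0.394% lower), 2.65% from 8C to 8A and 14.6% from ICM to TE. Fewer domains passed the filter on shortened lists, 3017 for H3K4me3; the cause was not tested further.

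With 1 library left out, 92 of 114 counts stayed, 13 moved and 9 turned. The ranges where any did were, for H3K4me3, 0.590% to 1.25% from 2C to 4C, 7.0% to 59.1% from 4C to 8C, 5.34% to 59.4% from 8C to 8A, 1.16% to 1.73% from MO to BL and 1.79% to 2.58% from ICM to TE. For H3K27ac from GV to 2C it was 23.1% to 30.4%, for H3K27me3 2.95% to 6.25% from 2C to 4C and 1.64% to 2.82% from 4C to 8C, for H3K9me3 0.678% to 1.09% from 4C to 8C and for ATAC 3.83% to 5.16% from ICM to TE. In such fits the lone library is assumed to vary like the other groups. The number of domains was 655 with joining under 1 kb, 7073 under 5 kb, 11294 with a minimum of 5 kb and 1314 with 20 kb. On shortened lists the H3K4me3 covered share was 24.0% in GV, 20.6% in 2C, 14.2% in 8C, 18.1% in 8A and 4.18% in MO. With followed peaks joined under 3 kb it was 75.1% in 2C, 49.1% in 8C and 6.43% in MO. List length may reflect depth, which is unknown, so differences of a few points between groups are not resolved.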

Other observations

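On the X chromosome the same rule gave 60 further intervals of 1.00 Mb in all. They took up 0.721% of X, against 3.43% of the autosomes. The X intervals entered no comparison above.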
